A study of Mus musculus with 20 samples.

Results

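Mitosis and G2/M genes are the genes whose products drive a cell into mitosis, build the spindle, separate the chromosomes and divide the cell. A list of 45 such genes, chosen by name, was followed in all 20 libraries of the study, with and without pool 2 of the Tet2-/- group. They are 45 of the 46078 genes in the deposited table, and all 45 were among the 14176 genes that were tested, those that averaged 1 TPM or more over the 20 libraries. TPM is a level corrected for transcript length and scaled to the same total in every library.

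Cells enter mitosis when the kinase Cdk1, bound to cyclin A or cyclin B, is freed of its inhibitory phosphates by Cdc25 phosphatases. Polo and Aurora kinases then organise the spindle, and the anaphase-promoting complex with its partner Cdc20 ends mitosis by marking cyclin B and securin for destruction. Most of these genes are transcribed in G2 and mitosis, from promoters known for CHR elements, which bind the MuvB complexes with B-Myb and FoxM1, and for CCAAT boxes, which bind NF-Y. In bone marrow, most long-term stem cells are out of cycle and the progenitors around them divide more often, so the RNA of these genes is widely used as a sign of cycling cells. In RNA from bulk cells, fewer cycling cells and less of each RNA per cell cannot be told apart.

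The study measured total RNA by sequencing in LSK cells of mouse bone marrow, a sorted fraction that lacks lineage markers, carries cKit and Sca1, and holds stem cells and multipotent progenitors. Every library came from a separate pool of 2 C57Bl/6J mice aged 3 to 4 months, and each of the 5 groups had 4 pools. The Idh1R132H/+, Idh2R140Q/+ and Idh2R172K/+ groups each carried 1 conditional mutant allele of an isocitrate dehydrogenase, switched on by Vav-Cre, a recombinase made in blood-forming cells, and such mutants make 2-hydroxyglutarate. The Tet2-/- mice lacked Tet2, an enzyme that oxidises methylated DNA. The WT mice carried Vav-Cre and no mutant allele, and so did not differ from the Idh groups in Cre. The label of the Tet2-/- group names no Cre, so loss of Tet2 and absence of Cre cannot be told apart there. The table's columns for Idh2R140Q/+ carry a prefix that names Idh1, and were assigned by the name of the mutation.

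Libraries held 35.2 to 45.01 M (1e+06) assigned reads, as read back from the TPM values. Idh2 was at 937 ± 62.8 TPM in Idh2R172K/+ cells and 529 ± 80.6 TPM in WT cells (SD, n = 4 each), and Tet2 at 9.91 ± 2.85 TPM in Tet2-/- cells and 7.5 ± 1.17 TPM in WT cells. A gene-level sum does not check a deletion of part of a gene or a point mutation. Before any group comparison, 5 libraries stood apart. In pool 2 of Tet2-/- the single gene Gm23935 took 20.0% of all TPM, and in pool 4 of each Idh group and of WT it took 7.55% to 8.13%, against 9.57% to 13.5% in the other 15 libraries. The summed level of the 45 genes was 2838 TPM in pool 2 of Tet2-/-, the lowest of all, and 4416 to 5491 TPM in the 4 pools numbered 4, against 3799 to 4550.0 TPM in the other 15. Pool 4 of Idh2R172K/+, at 4416 TPM, lay within that last range. For most comparisons, calls among the 45 genes are therefore given with these 5 libraries and without them. The choice of the 5 rested in part on levels of the 45 genes themselves. Calls without the 5 are therefore not independent of that choice. Other lists and markers are given over all 20 libraries, except where pool 2 of Tet2-/- is said to be left out.

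CHR letters and CCAAT boxes are what the promoters of these genes are known to share. RefSeq windows (mouse build GRCm38.p6) matched 37 of the 45 genes. Ccna2, Cdc25c, Pbk, Aurkb, Incenp, Tpx2, Dlgap5 and Kif20a had no entry. Both strands of the 250 bases before the RefSeq gene start were searched for TTTGAA and TTTAAA, the 2 common spellings of the CHR, and for CCAAT with its reverse complement ATTGG. In all, 2 of 99 matches overlapped another match. Stretches of 150 bases are shown for 3 of the genes that were lower in Tet2-/- cells (Plk1, Ccnf and Ccnb1) and for 3 that passed no test there (Cdk1, Ccnb2 and Ube2c). They are Plk1 at chr7:122159285-122159434 (plus strand), Ccnf at chr17:24251485-24251634 (minus strand), Ccnb1 at chr13:100786571-100786720 (minus strand), Cdk1 at chr10:69352939-69353088 (minus strand), Ccnb2 at chr9:70421555-70421704 (minus strand) and Ube2c at chr2:164769748-164769897 (plus strand). They read 5′ to 3′ on the gene's strand, end just before the farther upstream of the RefSeq and GENCODE starts, and carry the CHR letters and CCAAT boxes in capitals.
Plk1: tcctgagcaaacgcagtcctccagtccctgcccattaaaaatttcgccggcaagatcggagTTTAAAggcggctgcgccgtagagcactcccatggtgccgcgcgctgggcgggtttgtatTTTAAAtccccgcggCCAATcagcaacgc
Ccnf: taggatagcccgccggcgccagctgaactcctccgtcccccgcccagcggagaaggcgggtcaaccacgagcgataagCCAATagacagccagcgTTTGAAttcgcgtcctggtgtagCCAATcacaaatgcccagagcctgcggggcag
Ccnb1: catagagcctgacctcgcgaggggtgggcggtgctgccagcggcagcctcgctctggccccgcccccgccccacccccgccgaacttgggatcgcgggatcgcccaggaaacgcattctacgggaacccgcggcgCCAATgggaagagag
Cdk1: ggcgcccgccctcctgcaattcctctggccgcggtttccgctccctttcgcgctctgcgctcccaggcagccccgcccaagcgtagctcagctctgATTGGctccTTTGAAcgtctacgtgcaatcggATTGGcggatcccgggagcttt
Ccnb2: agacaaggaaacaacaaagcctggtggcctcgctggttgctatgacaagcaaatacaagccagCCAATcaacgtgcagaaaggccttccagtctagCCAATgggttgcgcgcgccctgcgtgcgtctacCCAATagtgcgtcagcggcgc
Ube2c: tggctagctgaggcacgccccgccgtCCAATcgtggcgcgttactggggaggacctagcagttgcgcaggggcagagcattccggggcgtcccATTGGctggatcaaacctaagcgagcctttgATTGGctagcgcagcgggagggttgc

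The printed stretch of Plk1 holds 2 CHR matches close to 1 CCAAT box, and those of Ccnf and Cdk1 each hold 1 CHR match between or beside 2 CCAAT boxes. Ccnb2 and Ube2c each show 3 CCAAT boxes with no CHR letters in the stretch, and Ccnb1 shows 1 box. The CHR letters of these genes lie outside the printed bases. Counted from the RefSeq start, they begin at -42 in Ccnb1 (TTTAAA), -167 in Ccnb2 (TTTGAA) and -29 in Ube2c (TTTGAA). Over the whole 250-base windows, CCAAT boxes were present in 29 of the 37 genes (78.4%), against 37.5% of 27025 genes with a window, and at least 2 boxes in 21 (56.8%), against 11.5%. Either CHR spelling was present in 19 (51.4%), against 28.1%: TTTGAA in 12 (32.4% against 18.3%) and TTTAAA in 8 (21.6% against 13.7%). CHR letters and a CCAAT box occurred together in 17 of the 37 genes (45.9%), against 10.1% of all genes. A match is a description of letters, not of a bound site. In the 250-base windows Plk1, Ccnf and Ccnb1, which were lower in Tet2-/- cells, held both CHR letters and CCAAT boxes. So did Cdk1, Ccnb2 and Ube2c, which passed no test there.

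**Figure D1:**
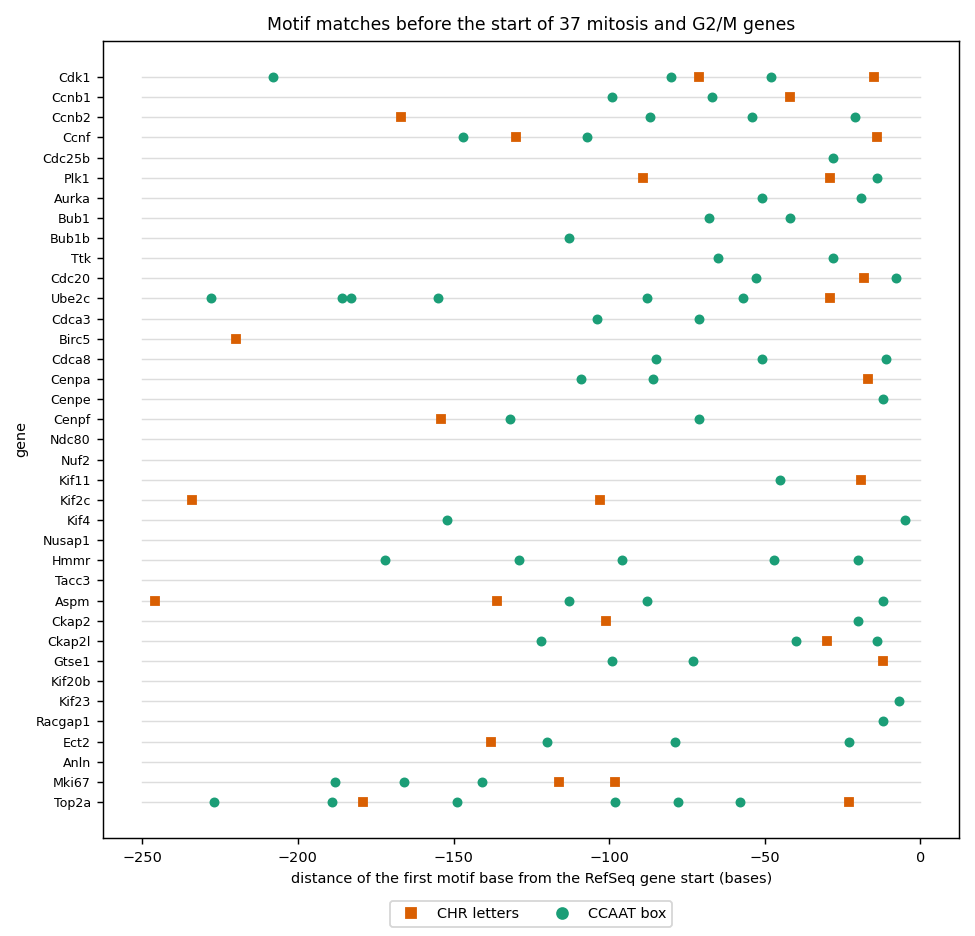
Positions of CHR letters (squares) and CCAAT boxes (circles) in the 250 bases before the RefSeq start of 37 mitosis and G2/M genes; the x axis is the distance in bases of the first motif base from the start and each line is 1 gene. CCAAT boxes appear in 29 genes and CHR letters in 19.

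Levels differed widely between the genes, on the length-corrected TPM scale. The mean level in WT cells ran between 16.5 ± 1.79 TPM for Cenpf, a large kinetochore protein, and 286 ± 44.2 TPM for Cdc20 (SD, n = 4). Cdc20 and Ccnb2 (285 ± 40.2 TPM) headed the order and did not differ beyond their spread, followed by the mitotic kinase Pbk (224 ± 14.1 TPM). The spread between pools was wide: the median coefficient of variation over the 45 genes was 14.7% in Idh1R132H/+, 12.9% in Idh2R140Q/+, 9.18% in Idh2R172K/+, 20.6% in Tet2-/- and 16.5% in WT cells. Much of it followed single libraries. Pool 2 of Tet2-/- had the lowest level of all 20 libraries for 37 of the 45 genes. The 4 pools numbered 4 of the Idh groups and WT together held the highest for 39. Pool 4 of WT held 27 of these, that of Idh1R132H/+ 11, that of Idh2R140Q/+ 1 and that of Idh2R172K/+ 0.

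**Figure D2:**
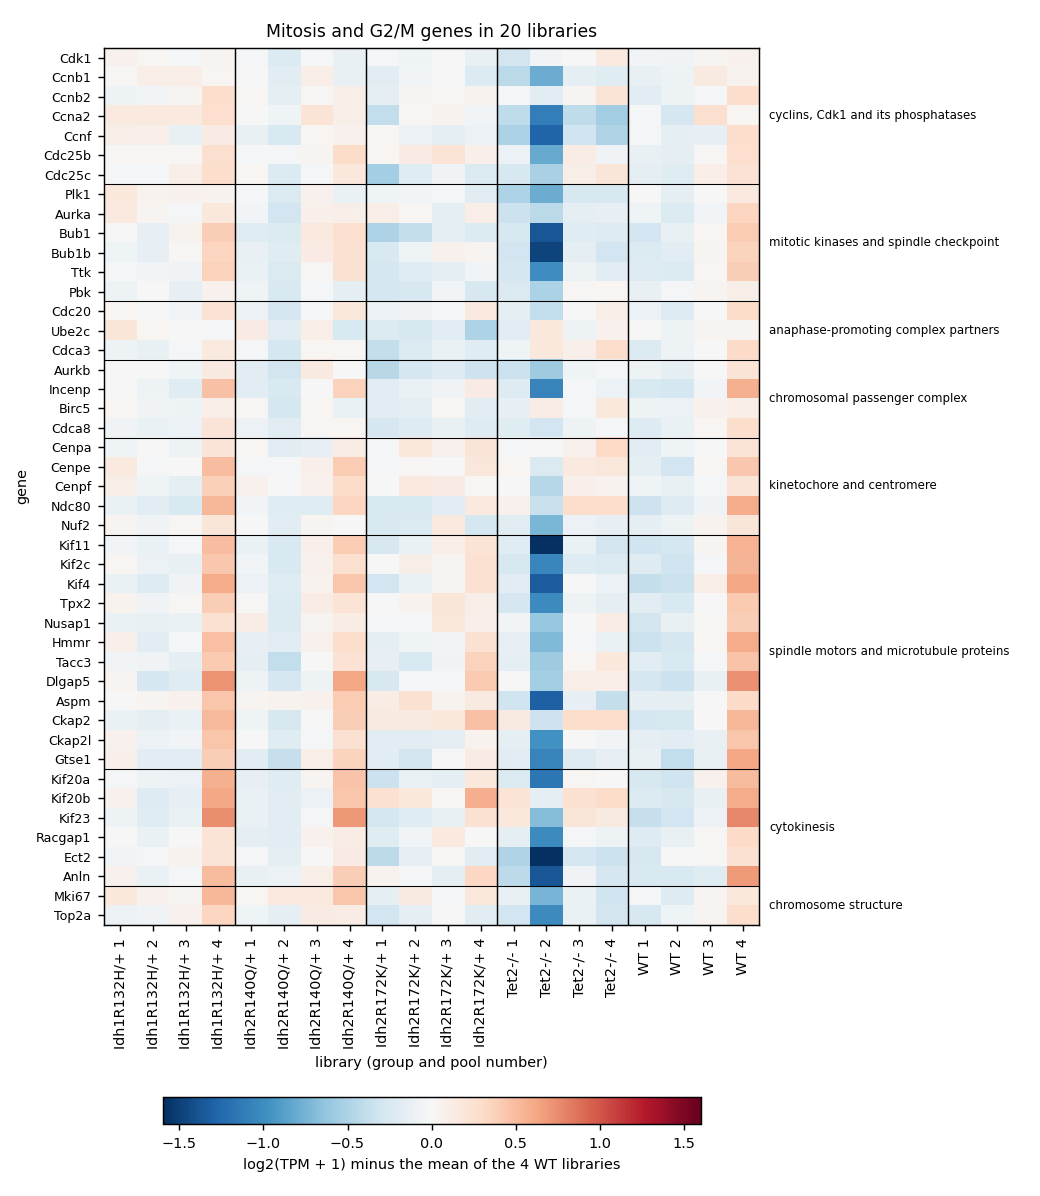
Level of each of the 45 genes in each of the 20 libraries, as the log2(TPM + 1) difference from the gene's mean over the 4 WT libraries; rows are genes in order of role and columns are pools by group. The column of Tet2-/- pool 2 is low for most genes, and the columns numbered 4 of the Idh groups and WT are high for most, least so in Idh2R172K/+.

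In Tet2-/- cells, 4 of the 45 genes fell relative to WT and none rose: the cyclins Ccna2, Ccnf and Ccnb1 and the kinase Plk1, by 23.6% to 36.1%. Among all 14176 genes tested, 2.02% were called lower and 5.02% higher in this comparison, so the share of lower calls among the 45 was above that of all genes. The test was limma on log2(TPM + 1) in 1 fit of the 5 groups, with Benjamini-Hochberg adjustment over all genes tested and a threshold of 0.05. Of the 45 genes, 8 had a log2 difference above 0, and the median was -0.27, against 0.02 over all genes tested. At an unadjusted p under 0.05 there were 15 of the 45, against 26.6% of all genes. The split of calls over all genes depended on the scaling: 712 were higher and 287 lower, but 986 and 1795 with median-of-ratios scaling, 980 and 1345 with each library's trend on exon length removed, and 1076 and 757 without the 20 most abundant genes and mitochondrial transcripts. In a fit of only the Tet2-/- and WT groups none of the 45 was called, but no share of all genes is given for that fit. Under the 3 other scalings 20, 13 and 7 of the 45 genes were called lower, and none higher.

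Of the 7 cyclins, Cdk1 and its phosphatases, 3 fell. Cyclin A2 (Ccna2, ENSMUSG00000027715, mm10 chr3:36564865-36572150), which activates Cdk2 and Cdk1 in S phase and G2, had 122, 74.4, 122 and 109.9 TPM in the 4 Tet2-/- pools, against 159, 135, 194 and 166 TPM in the WT pools. Every Tet2-/- pool was below every WT pool. The log2 difference was -0.62 ± 0.14 (SE), with a 95% interval of -0.92 to -0.32 and an adjusted p of 0.0187. An exon of Exosc9 on the other strand overlaps 510 exon bases of Ccna2, and Exosc9 was at 28.3 TPM; without a stated strand setting, reads there cannot be assigned.

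Cyclin F (Ccnf, ENSMUSG00000072082, chr17:24222198-24251484), the substrate receptor of an SCF ubiquitin ligase, had 105, 60.6, 119 and 106 TPM in Tet2-/- pools, against 147, 135, 136 and 181 TPM in WT pools. Again the groups did not overlap, and pool 2 of Tet2-/- was the lowest by far. The log2 difference was -0.65 ± 0.16 (adjusted p = 0.0228). Cyclin B1 (Ccnb1, ENSMUSG00000041431, chr13:100778650-100786570), the partner of Cdk1 at mitotic entry, had 92.7, 71.9, 112 and 109 TPM in Tet2-/- pools, against 115, 118, 138 and 129.5 TPM in WT pools. Here the highest Tet2-/- pool lay just under the lowest WT pool, and the log2 difference of -0.39 ± 0.11 passed narrowly (adjusted p = 0.0483). This call was lost in 15 of 20 alternatives, among them the fits with limma-voom, with a pseudocount of 0.1 TPM, with no filter or a filter of 5 TPM, with no intensity trend, of 2 groups only and with the length trend removed. On leaving out 1 library at a time its adjusted p ran between 0.0287 and 0.147, and it was lost for 7 of the 8 libraries.

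The kinase Cdk1 and cyclin B2 were not called. Cdk1 had 109.8, 131, 135 and 151 TPM in Tet2-/- pools, against 131, 129.6, 139 and 142 TPM in WT pools. The groups overlapped, and the log2 difference was -0.05 ± 0.08 with a 95% interval of -0.22 to 0.13, an interval that does not include the -0.62 of Ccna2. Cyclin B2 (Ccnb2) had 277, 251, 292 and 331 TPM in Tet2-/- pools, against 252, 268, 277 and 343 TPM in WT pools, a log2 difference of 0.02 ± 0.11. The phosphatases that activate Cdk1, Cdc25b (28.5 to 55.1 TPM in Tet2-/-, 45.5 to 61.2 in WT) and Cdc25c (29.5 to 49.2 TPM in Tet2-/-, 37.1 to 50.5 in WT), had log2 differences of -0.21 ± 0.15 and -0.12 ± 0.15 and were not called.

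**Figure D3:**
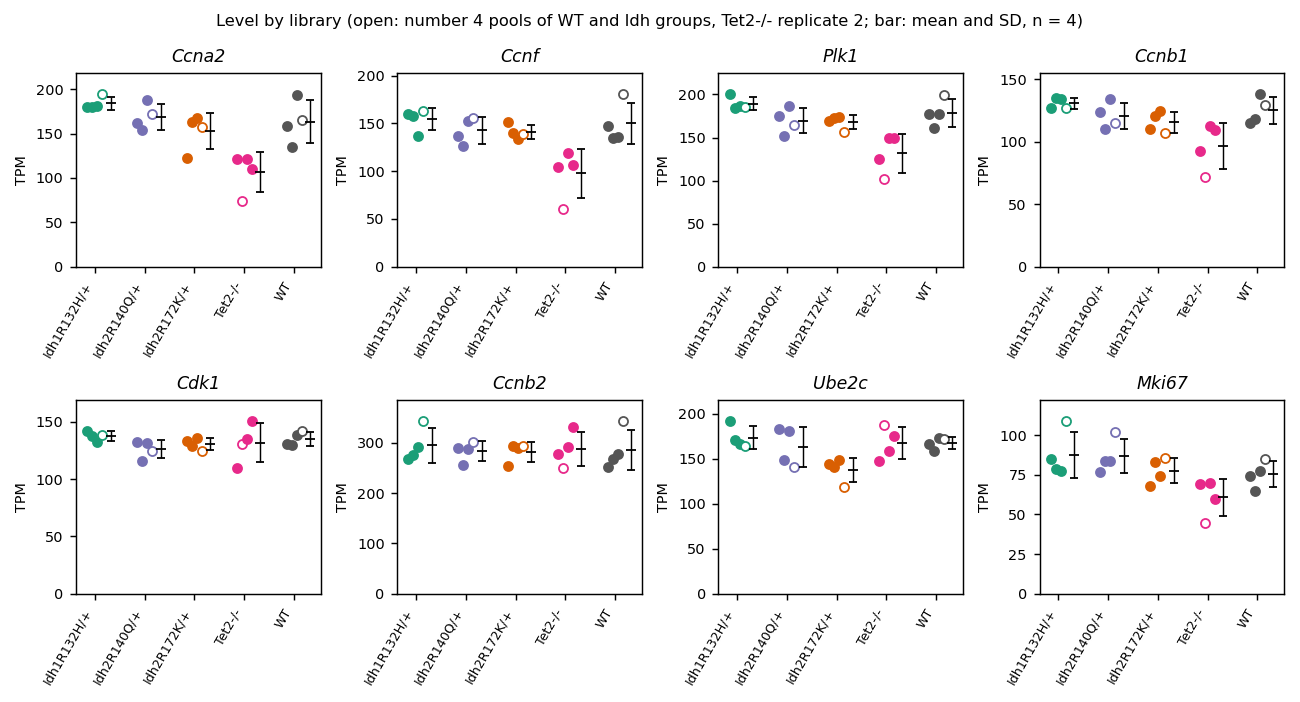
Level in TPM of 8 of the genes in every pool, with Idh1R132H/+, Idh2R140Q/+, Idh2R172K/+, Tet2-/- and WT along the x axis; each point is 1 pool, open circles are Tet2-/- pool 2 and the pools numbered 4 of the Idh groups and WT, and bars give the mean and SD. Ccna2 averaged 107 ± 22.4 TPM in Tet2-/- and 163 ± 24.3 TPM in WT cells, while Cdk1 averaged 131.7 ± 17.0 TPM in Tet2-/- and 135 ± 6.17 TPM in WT cells.

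Of the mitotic kinases and checkpoint genes, Plk1 passed the test and 5 did not. Plk1 (ENSMUSG00000030867, chr7:122159439-122169873), the Polo kinase of mitotic entry and spindle assembly, had 126, 102, 149 and 149 TPM in Tet2-/- pools, against 177, 161, 177 and 199 TPM in WT pools. The groups did not overlap, and the log2 difference was -0.45 ± 0.10 (95% interval -0.67 to -0.23, adjusted p = 0.02001). Aurka, the Aurora kinase of centrosomes and spindle poles, had 86.2, 80.8, 98.0 and 100.3 TPM in Tet2-/- pools, against 105, 93.9, 106 and 139 TPM in WT pools. Its groups overlapped, with a log2 difference of -0.27 ± 0.12 (adjusted p = 0.156). The checkpoint kinase Bub1 and its relative Bub1b had log2 differences of -0.51 ± 0.22 and -0.56 ± 0.22, the checkpoint kinase Ttk -0.38 ± 0.18 and Pbk -0.17 ± 0.10. All 4 had adjusted p of 0.116 or more.

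Of the genes that work with the anaphase-promoting complex, none of 3 was called. Cdc20, its activator, had 255, 215, 286 and 303 TPM in Tet2-/- pools, against 265, 247, 284 and 348 TPM in WT pools, a log2 difference of -0.11 ± 0.12. The ubiquitin-conjugating enzyme Ube2c had 147, 188, 158 and 176 TPM in Tet2-/- pools, against 166, 158, 173 and 172.04 TPM in WT pools, a log2 difference of -0.01 ± 0.10. Cdca3, which links a mitotic ligase to its targets, was at 78.3 ± 8.10 TPM in Tet2-/- and 72.5 ± 11.7 TPM in WT cells. The groups overlapped for all 3, and pool 2 of Tet2-/- was not low for Ube2c or Cdca3.

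The chromosomal passenger complex, which corrects attachments of chromosomes to the spindle, had no called member of 4. Its kinase Aurkb had 143, 123, 174 and 179 TPM in Tet2-/- pools, against 171.8, 164, 183 and 212 TPM in WT pools, a log2 difference of -0.25 ± 0.12 (adjusted p = 0.191). Birc5 (survivin) had 88.3, 106, 94.9 and 109 TPM in Tet2-/- pools, against 92.1, 90.6, 102 and 105 TPM in WT pools, a log2 difference of 0.03 ± 0.09. Incenp, the scaffold, and Cdca8 (borealin) had log2 differences of -0.35 ± 0.22 and -0.15 ± 0.10. None of the 5 kinetochore and centromere genes was called either, with a median log2 difference of 0.04: the centromeric histone Cenpa 0.09 ± 0.11, the motor Cenpe 0.04 ± 0.16, Cenpf -0.08 ± 0.14, and the microtubule-binding Ndc80 and Nuf2 0.07 ± 0.21 and -0.29 ± 0.14.

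The 12 spindle motors and microtubule proteins had a median log2 difference of -0.33, with 1 above 0 (Ckap2, 0.10 ± 0.20) and none called. Aspm, which focuses spindle poles, had the smallest p of them: 19.5, 9.30, 22.2 and 18.5 TPM in Tet2-/- pools, against 22.0, 21.8, 24.5 and 30.5 TPM in WT pools, a log2 difference of -0.54 ± 0.19 (adjusted p = 0.0918). Pool 2 was lower than any other library, and pool 3 of Tet2-/- lay above the lowest WT pools. The motor Kif11, which pushes spindle poles apart, was at 40.6 to 126 TPM in Tet2-/- and 108 to 199 TPM in WT cells, and the log2 difference of -0.57 ± 0.28 was not called. The others were Kif2c (-0.43 ± 0.20), Kif4 (-0.40 ± 0.28), Gtse1 (-0.39 ± 0.23), Tpx2 (-0.38 ± 0.18), Ckap2l (-0.29 ± 0.19), Hmmr (-0.24 ± 0.20), Nusap1 (-0.13 ± 0.16), Tacc3 (-0.13 ± 0.19) and Dlgap5 (-0.08 ± 0.26).

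Of the 6 cytokinesis genes none was called. Ect2, which activates RhoA at the division plane, came nearest: 55.3, 21.3, 64.3 and 60.6 TPM in Tet2-/- pools, against 64.7, 77.4, 78.1 and 91.7 TPM in WT pools, a log2 difference of -0.73 ± 0.24 (adjusted p = 0.0659). The groups did not overlap, and pool 2 of Tet2-/- held less than any other pool. The scaffold Anln (-0.53 ± 0.25), the mitotic kinesin Kif20a (-0.34 ± 0.25) and Racgap1 (-0.32 ± 0.17), the partner of Ect2, had negative differences, and the kinesins Kif23 (-0.04 ± 0.27) and Kif20b (0.15 ± 0.21) were near 0.

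The 2 genes of chromosome structure are the usual proliferation markers. Mki67 (ENSMUSG00000031004, chr7:135689784-135716361), the Ki-67 protein that coats mitotic chromosomes, had 69.0, 44.4, 69.7 and 59.9 TPM in Tet2-/- pools, against 74.3, 64.9, 77.4 and 84.7 TPM in WT pools. The groups overlapped and the log2 difference was -0.32 ± 0.14 (adjusted p = 0.165). Top2a, the topoisomerase that untangles chromosomes, had 149, 90.2, 171 and 149.7 TPM in Tet2-/- pools, against 155, 176, 189.6 and 224 TPM in WT pools. It was not called either, at -0.43 ± 0.16 (adjusted p = 0.0994).

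**Figure D4:**
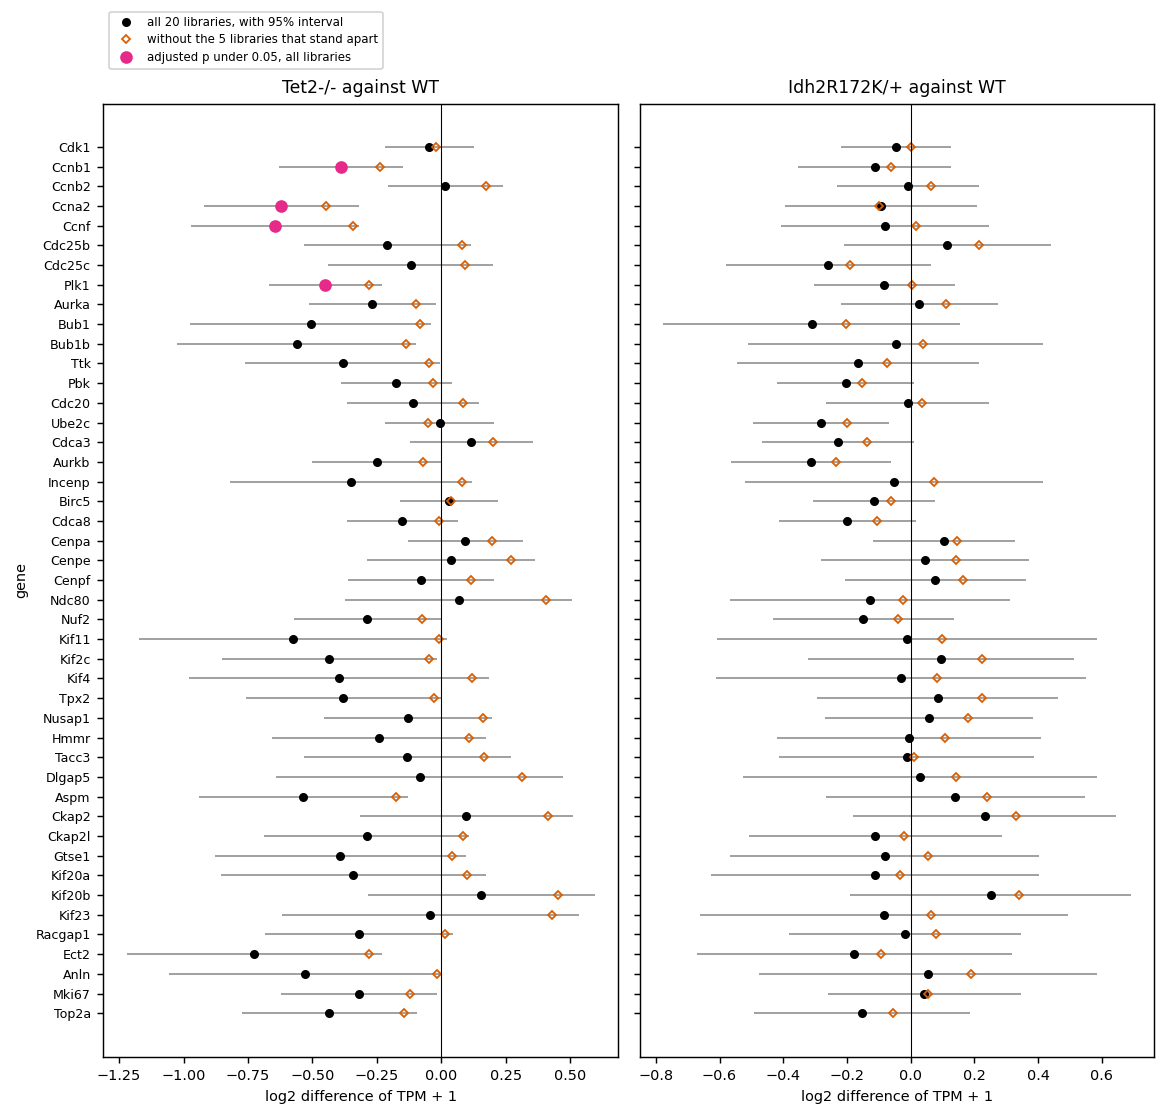
Log2 differences of the 45 genes, Tet2-/- against WT and Idh2R172K/+ against WT, on the log2(TPM + 1) scale; black points are estimates over all 20 libraries with 95% intervals as lines, large pink points passed an adjusted p of 0.05, and open diamonds are estimates without the 5 libraries that stood apart. The pink points are Ccna2, Plk1, Ccnf and Ccnb1 in Tet2-/- and none in Idh2R172K/+.

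Without pool 2 of Tet2-/-, Ccna2, Ccnf and Plk1 still fell relative to WT and Ccnb1 was not called. In that fit 1.62% of all genes were called lower and 5.42% higher. Now 13 of the 45 genes had a log2 difference above 0, and their median was -0.09. Hence most of the median of -0.27 rested on 1 library, while the 3 calls did not. They were not free of other libraries: the adjusted p was 0.0701 for Ccna2 and 0.0559 for Plk1 without WT pool 3, and 0.0508 for Ccnf without WT pool 4.

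Leaving out all 5 libraries that stood apart gave a mixed list. This took away the Tet2-/- pool with the lowest summed level of the 45 genes and the WT pool with the highest. The differences of this fit are therefore not independent of the choice of libraries. Each gene is given with its log2 difference ± SE and adjusted p. Then 3 genes fell in Tet2-/- cells, Ccna2 (-0.45 ± 0.13, adjusted p = 0.022), Ccnf (-0.34 ± 0.08, 0.00829) and Plk1 (-0.28 ± 0.08, 0.0195), and 6 rose: Kif20b (0.45 ± 0.08, 0.00108), Kif23 (0.43 ± 0.07, 0.000765), Ckap2 (0.42 ± 0.08, 0.00175), Ndc80 (0.40 ± 0.08, 0.00211), Dlgap5 (0.31 ± 0.10, 0.0329) and Cenpe (0.27 ± 0.08, 0.0277). Kif23, a motor of the central spindle, had 96.9, 98.4 and 94.98 TPM in the remaining Tet2-/- pools, against 66.4, 69.0 and 80.0 TPM in the remaining WT pools, while pool 2 of Tet2-/- had 52.8 TPM and pool 4 of WT had 147 TPM. Ckap2 had 58.1, 63.5 and 64.0 TPM in the remaining Tet2-/- pools, against 43.2, 43.6 and 52.0 TPM in the remaining WT pools, with 41.5 TPM in pool 2 of Tet2-/- and 76.1 TPM in pool 4 of WT. For both genes the remaining pools did not overlap, and the libraries left out lay on the opposite sides. In this fit 28.5% of all genes were called higher and 3.36% lower, so 6 of 45 higher was below the share of all genes and 3 of 45 lower was above it. The median over the 45 genes was 0.02, with 23 above 0.

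The deviation of pool 2 from its group followed the length of the genes. Each library's log2(TPM + 1) was set against the mean of the other pools of its group. In pool 2 of Tet2-/- the deviations of the 45 genes ran between -1.51 and 0.23, with 42 below 0 and a median of -0.61. Of all genes tested 76.5% were below 0 in this library, with a median of -0.41. The members' rank correlation with coding length was -0.64. The median deviation was -0.25 in the 15 genes with the shortest coding sequence (402 to 1389 bases), -0.80 in the middle 15 (1497 to 2490 bases) and -1.03 in the longest 15 (2640 to 9531 bases). Over 11455 protein-coding genes tested, the same correlation was -0.53. In pool 4 the correlation over the 45 genes was 0.64 in Idh1R132H/+, 0.68 in Idh2R140Q/+, 0.43 in Idh2R172K/+ and 0.52 in WT, and over the protein-coding genes 0.33 to 0.44. Below 0 were 3 of the 45 in pool 4 of Idh1R132H/+ (24.4% of all genes tested), 6 in Idh2R140Q/+ (23.6%), 14 in Idh2R172K/+ (30%) and 0 in WT (27.2%). In Idh2R172K/+ the members' median deviation of 0.11 was under the 0.16 of all genes tested. These correlations are across genes that share 1 library and its depth. With each library's trend on exon length removed, 13 of the 45 genes were called in Tet2-/- against WT, in place of 4. All 13 were lower, and over all genes 980 were called higher and 1345 lower in that fit. Exon length is another measure than coding length: Cenpa has 402 coding and 5860 exon bases. Whether that fit takes away the trend on coding length was not tested.

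**Figure D5:**
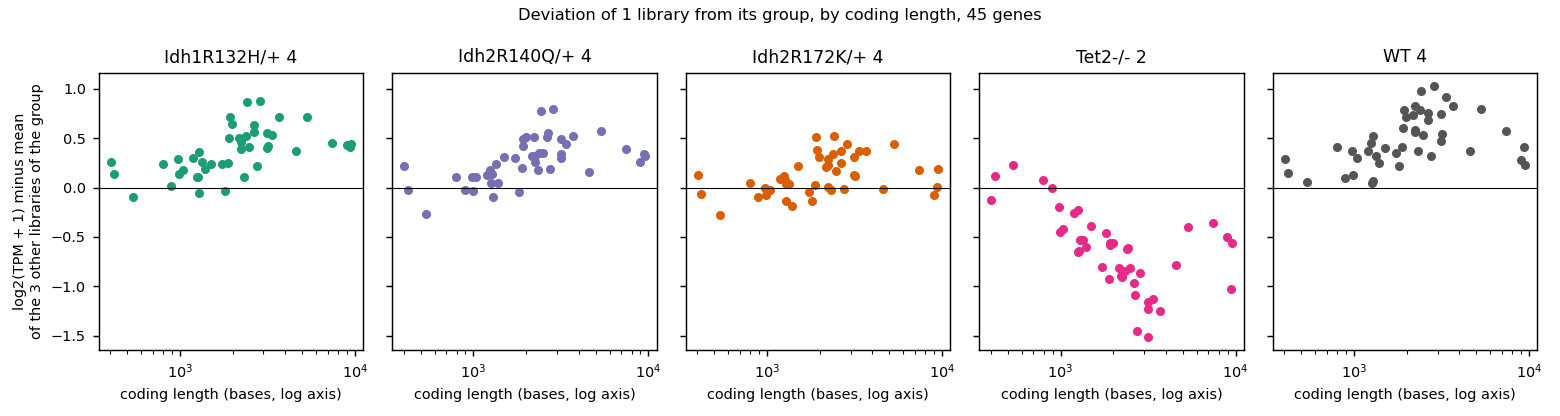
Deviation of each of the 45 genes in 5 libraries from the mean of the other pools of the group, in log2(TPM + 1), against coding length in bases on a log axis; each point is 1 gene. Points slope down in Tet2-/- pool 2 (rank correlation -0.64) and up in pool 4 of the other groups (0.43 to 0.68).

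In Idh2R172K/+ cells none of the 45 genes was called against WT, although 8.03% of all genes were called higher and 7.33% lower. At an unadjusted p under 0.05 there were 2 of the 45, against 28.8% of all genes. Limma-voom on rebuilt reads called Aurkb and Cdca8 lower, with no share of all genes given for that fit. The median log2 difference was -0.05, against 0.11 over all genes tested, and 14 of 45 were above 0. Over all genes 1138 were called higher and 1039 lower, but 1228 and 1556 with median-of-ratios scaling and 1277 and 1761 with the length trend removed, where 4 and 6 of the 45 were called lower and none higher. Ube2c had 144, 140.4, 149 and 119 TPM in Idh2R172K/+ pools, against 166, 158, 173 and 172.04 TPM in WT pools. Its groups did not overlap, and the log2 difference was -0.28 ± 0.10 (adjusted p = 0.0684). Aurkb had 134, 151, 157 and 145 TPM in Idh2R172K/+ pools, against 171.8, 164, 183 and 212 TPM in WT pools. These did not overlap either, with a log2 difference of -0.31 ± 0.12 (adjusted p = 0.0878).

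Cdca3 (-0.23 ± 0.11), Pbk (-0.20 ± 0.10) and Cdca8 (-0.20 ± 0.10) followed in order of p. Of the genes read as proliferation markers, Mki67 had 67.9, 83.0, 74.3 and 85.4 TPM in Idh2R172K/+ pools, against 74.3, 64.9, 77.4 and 84.7 TPM in WT pools, and Top2a had 149, 166, 186 and 164 TPM in Idh2R172K/+ pools, against 155, 176, 189.6 and 224 TPM in WT pools. Both overlapped between the groups. Ccna2 had 123, 164, 168 and 158 TPM in Idh2R172K/+ pools, Ccnf 151, 139.6, 134 and 139 TPM, and Ccnb1 110.0, 121, 124 and 107 TPM. Plk1 had 169.5, 172.3, 174 and 157 TPM, Cdk1 134, 129, 136 and 125 TPM, and Aurka 118, 112, 99.6 and 118 TPM. Cdc20 had 265, 272, 277 and 315 TPM and Birc5 85.4, 87.4, 99.6 and 86.6 TPM. Each of these 8 genes overlapped its WT pools, given above, and their log2 differences ran between -0.11 and 0.03.

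Without the 5 libraries that stood apart, 4 of the 45 genes rose in Idh2R172K/+ relative to WT and none fell: Kif20b (0.34 ± 0.08, adjusted p = 0.00605), Ckap2 (0.33 ± 0.08, 0.0066), Aspm (0.24 ± 0.08, 0.0295) and Cdc25b (0.21 ± 0.07, 0.0286). In that fit 22.2% of all genes were called higher and 10.6% lower, which is above the share of the 45. Ube2c stood at -0.20 with an adjusted p of 0.0999.

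In Idh1R132H/+ and Idh2R140Q/+ cells none of the 45 genes was called against WT, and none had an unadjusted p under 0.05. Over all genes, 0.00705% were called higher and 0% lower in Idh1R132H/+, with 1.62% at an unadjusted p under 0.05. In Idh2R140Q/+ 0% were called in either direction, with 2.87% reaching that level unadjusted. With limma-voom none of the 45 was called in these 2 groups, with no share of all genes given for that fit. Mki67 had 84.8, 78.8, 77.2 and 109 TPM in Idh1R132H/+ pools and 76.9, 83.9, 83.9 and 102 TPM in Idh2R140Q/+ pools, against 74.3, 64.9, 77.4 and 84.7 TPM in WT pools. Pool 4 was the highest in each of the 3 groups, and the log2 differences were 0.20 ± 0.14 (95% interval -0.10 to 0.51) and 0.20 ± 0.14 (-0.10 to 0.50).

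Ccna2 had 180.2, 180.1, 181 and 195 TPM in Idh1R132H/+ pools and 162, 154, 188 and 172.3 TPM in Idh2R140Q/+ pools, within or near the WT range of 135 to 194 TPM. Plk1 had 201, 185, 186 and 185 TPM in Idh1R132H/+ pools and 175, 152, 186 and 165 TPM in Idh2R140Q/+ pools, against 161 to 199 TPM in WT pools. Cdk1 had 142, 138, 132.2 and 139 TPM in Idh1R132H/+ and 133, 116, 131.9 and 125 TPM in Idh2R140Q/+ pools, and Ccnb1 had 127, 135, 134 and 127 TPM in Idh1R132H/+ and 124, 110.4, 134 and 115 TPM in Idh2R140Q/+ pools. Both stayed close to their WT pools, with log2 differences between -0.10 and 0.07.

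Of the remaining named genes, Ccnf had 159, 158, 137 and 163 TPM in Idh1R132H/+ pools and 137, 126, 153 and 156 TPM in Idh2R140Q/+ pools. Aurka had 123, 113, 108 and 124 TPM in Idh1R132H/+ pools and 107, 88.4, 116 and 117 TPM in Idh2R140Q/+ pools. Both genes overlapped their WT pools. Cdc20 had 289.6, 282, 275 and 332 TPM in Idh1R132H/+ pools and 266, 235, 279.9 and 322 TPM in Idh2R140Q/+ pools, with pool 4 the highest in both. Birc5 had 98.9, 93.6, 91.8 and 104 TPM in Idh1R132H/+ pools and 98.0, 79.7, 99.1 and 90.3 TPM in Idh2R140Q/+ pools. Top2a had 173, 177, 193 and 233 TPM in Idh1R132H/+ pools and 176, 166, 202 and 201 TPM in Idh2R140Q/+ pools, overlapping the WT pools.

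The median log2 difference over the 45 genes was 0.06 in Idh1R132H/+, with 39 above 0, and -0.00 (below 0 before rounding) in Idh2R140Q/+, with 21 above 0. Over all genes tested the medians were 0.04 and 0.08. Without the 5 libraries that stood apart, none of the 45 was called in either group. Then 44 were above 0 in Idh1R132H/+ (median 0.09) and 35 in Idh2R140Q/+ (median 0.05). Of all genes tested, 64.9% and 71.9% were above 0 in that fit, with medians of 0.04 and 0.07. All 4 comparisons share the 4 WT pools, so a low or high WT library moves them together.

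Tet2-/- cells were also set against each Idh mutant. Against Idh1R132H/+, 8 of the 45 genes fell and none rose, where 6.67% of all genes were called lower and 6.82% higher. By log2 difference ± SE and adjusted p, Ccna2 (-0.80 ± 0.14, adjusted p = 0.00379), Plk1 (-0.54 ± 0.10, 0.00571), Ccnf (-0.70 ± 0.16, 0.0109) and Ccnb1 (-0.46 ± 0.11, 0.0184) had the smallest p. Mki67, Aspm, Ect2 and Top2a were the others called. The all-gene split of 967 higher and 946 lower calls was 1271 and 2238 with median-of-ratios scaling. Before adjustment 18 of the 45 had a p under 0.05, against 31.5% of all genes. Ccna2 had 122, 74.4, 122 and 109.9 TPM in Tet2-/- pools, against 180.2, 180.1, 181 and 195 TPM in Idh1R132H/+ pools. No Tet2-/- pool reached the lowest Idh1R132H/+ pool. Without pool 2 of Tet2-/-, 6 of the 45 fell, where 4.35% of all genes were called lower and 6.95% higher.

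Against Idh2R140Q/+, 5 of the 45 fell in Tet2-/- and none rose, with 5.49% of all genes called lower and 4.05% higher: Ccna2 (-0.68 ± 0.14, adjusted p = 0.0152), Ccnf (-0.58 ± 0.16, 0.0327), Mki67 (-0.52 ± 0.14, 0.036), Plk1 (-0.38 ± 0.10, 0.0367) and Aspm. Without pool 2, Ccna2 and Ccnf fell, where 2.73% of all genes were called lower and 2.84% higher. At an unadjusted p under 0.05 there were 14 of the 45, against 30.1% of all genes. Mki67 had 69.0, 44.4, 69.7 and 59.9 TPM in Tet2-/- pools, all below the 76.9, 83.9, 83.9 and 102 TPM of the Idh2R140Q/+ pools.

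Against Idh2R172K/+, 4 of the 45 fell in Tet2-/- and 1 rose, where 14.9% of all genes were called lower and 11.9% higher. Read against those shares, 4 of 45 is below the first and 1 of 45 below the second. Ccna2 (-0.53 ± 0.14, adjusted p = 0.013), Ccnf (-0.57 ± 0.16, 0.0141), Plk1 (-0.37 ± 0.10, 0.0169) and Aspm (-0.68 ± 0.19, 0.0172) fell. Aspm had 19.5, 9.30, 22.2 and 18.5 TPM in Tet2-/- pools, against 26.7, 29.1, 25.5 and 27.2 TPM in Idh2R172K/+ pools. The gene that rose was Cdca3, named after its values were seen: 68.3, 81.1, 76.4 and 87.5 TPM in Tet2-/- pools, against 54.9, 61.4, 66.5 and 62.5 TPM in Idh2R172K/+ pools (0.35 ± 0.11, adjusted p = 0.0326). At an unadjusted p under 0.05 there were 14, against 40.1% of all genes. Cdca3 was not called without pool 2 or pool 4 of Tet2-/-, nor without pool 1, 2 or 4 of Idh2R172K/+, and its adjusted p ran between 0.0174 and 0.0961 on leaving out 1 library at a time. The 4 that fell were also called without pool 2, in a fit with 10.3% of all genes lower and 12.8% higher.

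Among the Idh mutants, 1 member was called. Ube2c fell in Idh2R172K/+ relative to Idh1R132H/+, with 144, 140.4, 149 and 119 TPM in Idh2R172K/+ pools, against 192, 171, 166 and 165 TPM in Idh1R132H/+ pools (-0.33 ± 0.10, adjusted p = 0.036), where 7.32% of all genes were called lower and 6.21% higher. With median-of-ratios scaling, with the length trend removed and with limma-voom, Ube2c was not called and Aurkb was. Aurkb (-0.33 ± 0.12, adjusted p = 0.0813), Cdc25c (-0.34 ± 0.15, 0.164) and Ccna2 (-0.28 ± 0.14, 0.242) came next by p and were not called. No label pairs the pools, but the deviations of same-numbered pools of these 2 groups from their group means correlated at 0.17 to 0.48. With the number as a block, 3 of the 45 fell, Aurkb (adjusted p = 0.02002), Ube2c (0.03004) and Cdc25c (0.0349), where 9.66% of all genes were called lower and 9.83% higher. That block term covered all 20 libraries, Tet2-/- pools included, although their numbers were not taken as pairs. Before adjustment 3 of the 45 passed 0.05, against 25.6% of all genes. Idh2R172K/+ against Idh2R140Q/+ gave no call among the 45 and 1 before adjustment (21% of all genes), where 6.74% of all genes were called lower and 3.76% higher. Idh2R140Q/+ against Idh1R132H/+ gave none at either threshold, where 0.00705% of all genes were called lower, 0% higher and 1.93% before adjustment.

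Without the 5 libraries that stood apart, Tet2-/- cells showed calls both ways against each Idh mutant. Against Idh1R132H/+ 7 of the 45 fell and 4 rose (6.34% of all genes lower, 26.3% higher), against Idh2R140Q/+ 5 fell and 4 rose (4.77% lower, 19.1% higher), and against Idh2R172K/+ 5 fell and 3 rose (11.7% lower, 23.5% higher). Ccnf, Plk1 and Aspm were called lower in all 3 comparisons, and the kinesin Kif23 and Ndc80 were called higher in all 3. In Idh2R172K/+ relative to Idh2R140Q/+, Ckap2 and Kif20b rose (10.6% of all genes higher, 9.73% lower), and relative to Idh1R132H/+ these 2 rose and Ube2c fell (16.6% higher, 10.3% lower).

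Other genes of the cell cycle were taken from lists chosen by role. Their counts in Tet2-/- against WT stand beside 5.02% of all genes called higher and 2.02% lower. The 21 genes that control G2/M transcription held 1 call in Tet2-/- against WT: Tfdp1, the partner of E2F proteins, fell (214 ± 48.4 TPM in Tet2-/- against 331 ± 60.3 TPM in WT cells, -0.64 ± 0.17, adjusted p = 0.0336), and the list's median was -0.27. Foxm1, the forkhead activator of G2/M genes, was at 27.4 ± 9.48 TPM in Tet2-/- and 39.6 ± 8.34 TPM in WT cells and was not called (-0.57 ± 0.25, adjusted p = 0.148), nor was Mybl2, which encodes B-Myb (-0.39, adjusted p = 0.181). Of 62 other mitosis genes, Pttg1 (securin) rose (42.2 ± 2.89 TPM in Tet2-/- and 33.2 ± 1.30 TPM in WT cells, adjusted p = 0.0185) and Arhgap11a (-0.82 ± 0.22) and Fam83d (-0.36 ± 0.11) fell. Without pool 2 of Tet2-/-, Pttg1 and Arhgap11a were called and none of the 21 control genes was, where 5.42% of all genes were higher and 1.62% lower.

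Of 15 cell cycle brakes tested, 2 rose in Tet2-/- and 1 fell, against the same 5.02% and 2.02% of all genes. The CDK inhibitors Cdkn2d (0.30 ± 0.07, adjusted p = 0.0222) and Cdkn1a (0.67 ± 0.19, 0.0389) rose, and Cdkn2c (-0.60 ± 0.15, 0.0232) fell. Of 9 G1 cyclins and kinases, Ccne2 (-0.58 ± 0.15) and Ccnd1 (-0.73 ± 0.20) fell, and of 31 S phase genes, Rrm2 (-0.44 ± 0.12), a subunit of ribonucleotide reductase, and the flap endonuclease Fen1 (-0.44 ± 0.12) fell, with a median of -0.31 over the list. Without pool 2, the median of the S phase list was -0.12 and none of its genes was called.

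The same lists in Idh2R172K/+ cells stand beside 8.03% of all genes called higher and 7.33% lower. None of the 21 G2/M control genes was called, E2f8 having the smallest p (-0.48 ± 0.19, adjusted p = 0.105). Of the 62 other mitosis genes 3 fell, a smaller share than that of all genes: Mad2l1, a checkpoint protein (-0.36 ± 0.09, adjusted p = 0.00939), Spc24 of the kinetochore (-0.34 ± 0.10, 0.0222) and Cks2, a Cdk1 partner (-0.32 ± 0.10, 0.041). Of the 31 S phase genes 5 fell and none rose, led by Rrm2 at 121 ± 6.08 TPM in Idh2R172K/+ and 220.2 ± 20.3 TPM in WT cells (-0.86 ± 0.12, adjusted p = 3.8e-05), with Gins1, Tyms and Cdt1 next by p.

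Of the 15 brakes 6 rose in Idh2R172K/+ and none fell, with Cdkn2d (0.51 ± 0.07, adjusted p = 5.3e-05), the forkhead factors Foxo3 (0.61 ± 0.12, 0.00192) and Foxo1 (0.58 ± 0.17, 0.0284) and cyclin G2 (Ccng2, 0.77 ± 0.23, 0.0304) first by p. Cyclin D1 (Ccnd1), which starts G1 progression, was at 0.854 ± 0.128 TPM in Idh2R172K/+ and 8.52 ± 1.14 TPM in WT cells (-2.35 ± 0.20, adjusted p = 1.6e-07). Ccnd2 also fell (-0.31 ± 0.10, 0.0486) and Cdk6 rose (0.45 ± 0.09, 0.00218). In Idh1R132H/+ and Idh2R140Q/+ none of these lists held a call. The smallest p in Idh1R132H/+ were those of E2f5, Knl1, Btg1, Ccnd1 and Gins1, and in Idh2R140Q/+ those of E2f5, Kif14, Btg1, Ccnd1 and Gins1, with Ccnd1 at -0.38 ± 0.20 and -0.54 ± 0.20.

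Some lists of cell type markers also held calls against WT in Tet2-/- and Idh2R172K/+ cells. Among all genes 5.02% were called higher and 2.02% lower in Tet2-/-, and 8.03% higher and 7.33% lower in Idh2R172K/+. With lists this short, a single call is near what those shares give. Kit, a marker of the sort, was at 97.9 to 456 TPM in Tet2-/- and 335 to 427 TPM in WT pools, and Ly6a, the gene of Sca1, rose in Tet2-/- (adjusted p = 0.000999) and fell in Idh2R172K/+ (adjusted p = 0.0317). Of 9 erythroid progenitor markers, 5 fell in Tet2-/- and 7 in Idh2R172K/+, and their summed level was 1317 to 1861 TPM in Tet2-/- and 636 to 777 TPM in Idh2R172K/+, against 1750.3 to 2047 TPM in WT pools. Of 9 granulocyte-monocyte progenitor markers, none was called in Tet2-/- and 5 fell in Idh2R172K/+, with sums of 4602 to 6089 TPM in Tet2-/- and 3541 to 4884 TPM in Idh2R172K/+, against 5355 to 8241 TPM in WT pools. Of 10 stem cell markers, 1 rose in Tet2-/- and 3 in Idh2R172K/+. Their sums were 322 to 754 TPM in Tet2-/- (median 663) and 833 to 920.0 TPM in Idh2R172K/+ (median 864). In WT pools they were 408 to 489 TPM (median 464), so the Tet2-/- median lay above every WT pool although the ranges overlapped. Of 7 macrophage markers 2 rose in Tet2-/- (C1qb and C1qc) and 1 fell in Idh2R172K/+ (Cd68), and their sum was 172.4 to 210 TPM in Tet2-/- and 66.5 to 83.4 TPM in Idh2R172K/+, against 122 to 142 TPM in WT pools, with no overlap of either mutant with WT. Of the lists of mature cells, the 8 neutrophil markers summed to 35.5 to 123 TPM in Tet2-/- and 24.2 to 82.6 TPM in Idh2R172K/+, against 33.4 to 94.96 TPM in WT pools, with Ly6g alone under 1 TPM in the mean. The 7 B lineage markers summed to 107 to 125 TPM in Tet2-/- and 39.3 to 114 TPM in Idh2R172K/+, against 90.2 to 108 TPM in WT pools, and the transcription factors Ebf1 and Pax5 were under 1 TPM. In Idh2R172K/+ 2 of the B lineage markers rose and 1 fell. The 7 T and NK markers summed to 750.02 to 861 TPM in Tet2-/- and 715 to 799 TPM in Idh2R172K/+, against 754 to 959 TPM in WT pools; most of that was Nkg7, and Cd3e, Cd3d, Cd3g, Cd8a and Gzma were under 1 TPM. The 7 markers of stroma and endothelium summed to 39.2 to 78.8 TPM in Tet2-/- and 45.8 to 58.4 TPM in Idh2R172K/+, against 48.3 to 90.1 TPM in WT pools; all but Pecam1 (65.2 ± 18.4 TPM in Tet2-/- and 61.4 ± 19.2 TPM in WT cells) were under 1 TPM. No marker was at 0 in every library. The part of these cell types in the levels of the 45 genes was not tested.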

How the data were processed

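Per the submitters' processing notes, reads were trimmed with Trim Galore, aligned to mm10 with STAR and counted with featureCounts. No versions, annotation release or strand setting is given in the sources used here. The authors deposited 1 table of TPM values per gene and library, with no counts. The 45 genes and all other lists were chosen with earlier results of these data known.

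Gene names, coordinates and exon lengths came from GENCODE M21 (mm10), which named 45229 IDs and lacked 849. After log2(TPM + 1), all 20 libraries entered 1 fit with a mean-variance trend (limma 3.58.1, R 4.3.3). It covered 14176 genes, which averaged 1 TPM or more. P-values were adjusted by Benjamini-Hochberg over all of them, and a gene was called at an adjusted p under 0.05. Fold changes on this scale understate the change of low genes. The script was tested on simulated data. Per the labels, pools are separate biological replicates, and no 2 columns were identical.

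Whole reads were rebuilt from TPM and exon length. Among low values, 90.0% to 91.1% came within 0.1 of a whole read, and these reads were used only for depth and for limma-voom as an alternative. The pool numbers were taken as pairs only where all 4 same-numbered correlations of deviations from the group means passed 0.1, which held in 4 of 10 comparisons (Idh1R132H/+ with each other Idh group and with WT, and Idh2R172K/+ with Idh2R140Q/+; 0.15 to 0.54). Of all such correlations, 21 of 24 passed among the Idh groups and WT, and 1 of 16 with Tet2-/-. Values in every library are given for Mki67, Top2a, Cdk1, Ccnb1, Plk1, Aurka, Cdc20 and Birc5, for every member called against WT, and for up to 4 members by smallest p between mutants where any was called. In each other list up to 4 called genes by smallest p are named, or the smallest p. Foxm1 and Mybl2, and members named for their place in a role, were given after their values were seen. Alternatives were another pseudocount, other filters and scalings, fits of 2 groups, no trend, library weights, a replicate block, leaving out libraries and voom. Removal of a trend on exon length was added after seeing the data. Python 3.11.15, pandas 2.3.3, numpy 2.4.6, scipy 1.17.1 and matplotlib 3.10.9 were used.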

Additional observations from a re-analysis of the deposited data

Results flagged for a closer look

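Within groups of 4 pools, 6 of 75 checks found 1 pool farther from the rest than Dixon's critical value of 0.829 allows. Chance alone gives about 1 in 20. In Idh1R132H/+ cells these were Plk1 in pool 1 (200.6 TPM, against 185 to 186 in the other pools), Ccna2 in pool 4 (194.7 TPM, against 180.1 to 181), Aspm in pool 4 (33.7 TPM, against 24.3 to 25.8) and the summed level of the 45 genes in pool 4 (5371 TPM, against 4295 to 4443). In Idh2R140Q/+ cells it was Aspm in pool 4 (32.6 TPM, against 25.3 to 25.8), and in Idh2R172K/+ cells Birc5 in pool 3 (99.6 TPM, against 85.4 to 87.4). Pool 4 accounts for 4 of the 6, and it is one of the libraries that stood apart. No check of this kind picked out pool 2 of Tet2-/-, and the cause of these deviations was not tested.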

How the results depend on the processing

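Of 200 recomputed counts of called members, 134 stayed within 1.5 times the value given above. That number includes counts that were 0 and stayed 0. These were all counts of Idh1R132H/+ and Idh2R140Q/+ against WT and of Idh2R140Q/+ against Idh1R132H/+, and most of those in other comparisons without a call. Over the comparisons that had a call, more counts moved than stayed. The number of the 45 genes called in Tet2-/- against WT was 4. It was 20 with median-of-ratios scaling, 7 after leaving out the 20 most abundant genes and mitochondrial transcripts, 0 when only the 2 groups were fitted, 8 with library weights (3 higher, 5 lower), 11 with the replicate block, 9 without the 5 libraries that stood apart, 13 with the exon length trend removed and 7 with limma-voom. In the same order of settings, Tet2-/- against Idh2R172K/+ (5 called) gave 12, 11 and 0, then 14 with the block, 8 without the 5 libraries and 13 with the length trend removed. Tet2-/- against Idh2R140Q/+ (5 called) gave 1 without a filter on low values, 13, 8 and 0, then 13 with the block, 9 without the 5 libraries and 8 with the length trend removed. Tet2-/- against Idh1R132H/+ (8 called) gave 5 without a filter, 21, 15 and 1, then 20 with the block, 19 with the length trend removed and 14 with voom. For Idh2R172K/+ against WT (0 called) the counts were 4 with median-of-ratios scaling, 1 without the abundant genes, 2 with weights, 1 with the block, 4 without the 5 libraries, 6 with the length trend removed and 2 with voom. Idh2R172K/+ against Idh2R140Q/+ gave 2 without the 5 libraries. Idh2R172K/+ against Idh1R132H/+ (1 called) gave 0 without a filter and with no intensity trend, 2 with median-of-ratios scaling, with 2 groups and with voom, 3 with weights, with the block and without the 5 libraries, and 6 with the length trend removed. Higher and lower calls over all genes changed too. In Tet2-/- against Idh2R172K/+ they were 1991 and 2949 with median-of-ratios scaling. They were 1917 and 2774 without the abundant genes and 2183 and 2358 with the length trend removed. In the same order, Idh2R172K/+ against Idh1R132H/+ had 1127 and 1371, 1215 and 1156, and 1229 and 1591. Counting calls in both directions, these shares were above those of the 45 in both comparisons. For lower calls alone that did not hold in Tet2-/- against Idh2R172K/+. There 11, 10 and 9 of the 45 were called lower, a larger share than that of all genes. In Idh2R172K/+ against Idh1R132H/+ it did not hold with the length trend removed, where 6 of the 45 were called lower. Tet2-/- against Idh2R140Q/+ had 924 and 1878, 877 and 1396, and 891 and 1286. Tet2-/- against Idh1R132H/+ had 1271 and 2238, 1351 and 1540, and 1355 and 1736. In these 2 comparisons the shares of the 45 were above those of all genes for lower calls and for both directions together. None of the 45 was called higher there. For weights, fits of 2 groups and voom no share of all genes is given here. For the block it is given only for Idh2R172K/+ against Idh1R132H/+. Fits of 2 groups and without the 5 libraries hold fewer samples. The cause of the changes in these counts was not tested.

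Median log2 differences moved beyond the spread in 6 of 200 cases, and the first of the values without the 5 libraries lies on the other side of 0. For Tet2-/- against WT the median was -0.03458 with library weights and 0.01533 without the 5 libraries, for Tet2-/- against Idh2R140Q/+ -0.003955 and -0.01004, and for Tet2-/- against Idh1R132H/+ -0.06142 and -0.04579.

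On leaving out 1 library at a time, the called members numbered 1 to 6 in Tet2-/- against WT, 4 to 13 against Idh2R172K/+, 0 to 9 against Idh2R140Q/+ and 4 to 12 against Idh1R132H/+. They numbered 0 to 1 in Idh2R172K/+ against Idh1R132H/+ and 0 in each other comparison. The medians ran between -0.33 and -0.09, -0.30 and -0.01, -0.33 and -0.08, and -0.40 and -0.15 in the 4 Tet2-/- comparisons, in that order. For Idh1R132H/+, Idh2R140Q/+ and Idh2R172K/+ against WT they ran between -0.03 and 0.19, -0.08 and 0.13, and -0.13 and 0.09. Between Idh groups they ran between -0.12 and 0.03 for Idh2R172K/+ against Idh2R140Q/+, -0.16 and 0.00 for Idh2R172K/+ against Idh1R132H/+, and -0.14 and 0.03 for Idh2R140Q/+ against Idh1R132H/+. Where the numbers were taken as pairs, the block changed no call among the 45 beyond those of Idh2R172K/+ against Idh1R132H/+ given above. Elsewhere the pools share only a number, and 14 of 20 libraries correlated best with their own, a hint from the data and not from the design. TPM hold no depth of their own, and 4 pools a group limit the precision. Reads shared with overlapping genes on the other strand (Ccna2, Cdc20, Kif20a, Kif4, Nusap1 and Tacc3 among the members) could not be separated.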

Other observations

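Overlap on the other strand was widest for Kif20a, which shares 1271 exon bases with Cdc23 (45.8 TPM), and for Kif4, which shares 832 with Pdzd11 (52.9 TPM). Copies of the cyclin B genes were low: Ccnb1-ps had 1.87 TPM and Ccnb2-ps 1.62 TPM in the mean over the 20 libraries.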
